A study of Mus musculus with 6 samples.

Results

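The genes described here encode histones, the proteins that package DNA into nucleosomes. They are the rows of the deposited annotated table whose gene symbol starts with Hist1h to Hist4h, H2af or H3f3, which gave 42 of its 16111 genes. Of these, 31 were protein-coding genes of the replication-dependent histone clusters (5 for H1, 4 for H2A, 8 for H2B, 4 for H3 and 10 for H4), 8 encoded the replacement variants named H2af and H3f3, and 3 were non-coding (H3f3a-ps1, H3f3aos and Hist3h2bb-ps). Of the cluster genes, 25 lay on chromosome 13, 3 on chromosome 3, 2 on chromosome 11 and 1 on chromosome 6. The symbols chose the genes, and the symbol rule uses neither their levels nor the comparison between genotypes. This set of genes and the lists used below were chosen with earlier results of these data known.

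The study sequenced RNA from mouse fetal liver macrophages of wild-type and Ahrr-deficient fetuses, strain C57BL/6 RCC, with 3 libraries per genotype. Ahrr encodes the aryl hydrocarbon receptor repressor, which limits transcription driven by the aryl hydrocarbon receptor. The labels give the second genotype as AhRR-/- and do not name the allele or its deleted part. Cells of both genotypes came from E13.5 fetuses, grew for 5 weeks in RPMI with 10% FCS and 2% GM-CSF, and the non-adherent cells were harvested, so the cells are a long-term culture and not fresh tissue. The input was 100 ng of RNA per library, labelled polyA RNA, prepared with a TruSeq v2 kit and read as 75 bases, single-end. The labels give each library of a genotype its own mouse number but do not describe separate cultures, so the p-values measure the spread between these samples, part of which may be technical.

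A dividing cell makes most of its histones during S phase from clustered genes that lack introns. Their messenger RNAs end in a short stem-loop, bound by the stem-loop binding protein SLBP, in place of a poly(A) tail. Replacement variants such as H3.3 and H2A.Z are made throughout the cell cycle, mostly from genes with introns and with polyadenylated transcripts, and some cluster genes also give polyadenylated transcripts in cells that have stopped dividing. Macrophages kept in culture can hold both dividing and resting cells.

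The stem-loop is printed for 7 genes because a transcript that ends in it has no poly(A) tail, and the libraries were labelled polyA RNA. Whether the transcripts of a gene with the loop ended there in these cells was not tested. Bases are from GENCODE vM21 transcripts on GRCm38/mm10, written 5′ to 3′ as DNA, with the 16-base stem-loop in capitals and 5 flanking bases on each side.
Hist1h1c: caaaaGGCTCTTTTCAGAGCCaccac
Hist3h2a: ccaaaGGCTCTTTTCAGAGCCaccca
Hist1h3e: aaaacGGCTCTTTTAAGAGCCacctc
Hist1h4c: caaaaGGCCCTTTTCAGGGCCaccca
Hist1h4i: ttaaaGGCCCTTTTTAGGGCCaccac
Hist1h4j: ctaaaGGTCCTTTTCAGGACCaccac
H2afx: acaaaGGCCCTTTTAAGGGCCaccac

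The stem-loop in capitals lies at chr13:23739512-23739527 on the plus strand for Hist1h1c and at chr11:58955172-58955187 on the plus strand for Hist3h2a. A search of the transcript strand for GG, any 2 bases, CTTTT, any base, AG, any 2 bases and CC found it in 23 of the 31 cluster genes and in 1 of the 8 variant genes, H2afx. The same search found it in 72 of 21901 protein-coding genes of the annotation (0.329%), 45 of which carry one of the histone names used here. Over the 24 genes, the loop began 24 to 54 bases after the stop codon (median 31.5). The form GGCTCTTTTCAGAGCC was in 14 genes for H1, H2A, H2B and H3 and in no H4 gene, while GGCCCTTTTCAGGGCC was in 5 genes, all for H4. The form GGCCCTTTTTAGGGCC was in 2 further H4 genes, Hist1h4i and Hist2h4. Hist1h4j, Hist1h3e and H2afx each held a form of their own, and those 3 and Hist1h4c are shown as examples of the forms, not for their levels. A match to these letters is a description of the annotated transcript and was not set against any binding measurement. The search cannot find a loop beyond an annotated end, so a missing match does not show that a gene lacks the loop. Among the cluster genes without a match, all named for this, Hist1h4k, Hist1h2bn and Hist1h2ak have annotated transcripts of only 312, 381 and 393 bases. The others without a match are longer: Hist1h4a (539 bases), Hist1h1a (741), Hist1h1b (743), Hist1h2bc (1156) and Hist2h2be (2620).

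The annotated transcripts of many cluster genes did not stop at the stem-loop. In 19 of the 23 the annotated end lay more than 100 bases beyond it, with a median distance over the 23 of 454 bases and a range from 23 to 4884. Hist1h1c ran 840 bases past its loop and Hist3h2a 1643. The poly(A) signal AATAAA stood in the last 50 bases of an annotated transcript of 10 of the 31 cluster genes, of 7 of the 8 variant genes and of 65.7% of all protein-coding genes. Of the 23 cluster genes with a loop, 8 had both features, Hist1h1c and Hist3h2a among them. H2afx, the variant with a stem-loop, had no AATAAA in that window.

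Total counts per library were 21939809, 6300421 and 7137414 in wild-type 1 to 3 and 3556106, 41668336 and 9888711 in Ahrr-deficient 1 to 3. A count of 3 therefore corresponds to between 0.0720 and 0.844 CPM (counts scaled to a library total of 1e+06), so low levels are measured least well in Ahrr-deficient 1. Ahrr itself stood at 4.60, 4.29 and 5.32 CPM in wild-type cells and at 2.25, 2.57 and 1.21 CPM in Ahrr-deficient cells (log2 fold change -1.21, SE 0.26, adjusted p = 0.0151). The groups did not overlap. That adjusted p became 0.0631 without wild-type 1 and 0.0502 without wild-type 3. All 12 listed macrophage markers were present, summing to 48497 to 63491 CPM in every library, and listed neutrophil, mast cell and stromal markers summed to at most 2.38 CPM, with no lymphoid marker in the table. Summed markers of 3 other lists were lower in all Ahrr-deficient libraries. Hepatocyte markers, 2 of 8 in the table and nearly all from the transferrin gene Trf, summed to 158 to 186 CPM in wild-type libraries and 89.4 to 120 CPM in Ahrr-deficient ones (Trf log2 fold change -0.75, adjusted p = 0.00618). Erythroid markers, 3 of 10 in the table and mostly the erythropoietin receptor gene Epor, summed to 13.49 to 22.98 CPM and 2.86 to 4.96 CPM, and Epor was called lower. Megakaryocyte markers, 2 of 5 in the table, summed to 5.46 to 5.79 CPM and 3.14 to 4.50 CPM, and 1 of them, Itga2b, was called lower. Dendritic markers, 3 of 6 in the table, overlapped at 7.14 to 10.8 CPM and 8.999 to 10.4 CPM. Of the macrophage markers, 10 of 12 had a log2 fold change below 0 (median -0.36), with Csf1r and Cd14 called lower and Itgax called higher.

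One library stood apart in ribosomal and other RNA that is not made as polyadenylated messenger RNA. Summed over 50 genes for ribosomal, small nuclear, small nucleolar and similar RNAs, wild-type 2 held 63501 CPM, against 789 in wild-type 1, 996 in wild-type 3 and 717 to 1348 in the Ahrr-deficient libraries. Most of this came from 1 ribosomal RNA gene, CT010467.1, and without it the sum was 10708 CPM in wild-type 2 and 547 to 877 CPM in the other 5. Of that 10708 CPM, 10299 came from the mitochondrial ribosomal RNAs mt-Rnr1 and mt-Rnr2, which carry short A tails. The other 47 genes summed to 409 CPM in wild-type 2 and to 15.3 to 22.7 CPM in the other 5. Because transcripts of the cluster genes can also lack a tail, wild-type 2 is shown beside the other libraries below, and some fits are also given without it.

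In the comparison of genotypes, 17 of the 42 histone genes had enough reads to be tested, 8 of the 31 cluster genes, all 8 variants and the pseudogene H3f3a-ps1. The 2 that passed were both cluster genes and both fell in Ahrr-deficient cells: Hist1h1c, which encodes the linker histone H1.2, and Hist3h2a, an H2A gene. The test was edgeR's quasi-likelihood test with Benjamini-Hochberg adjustment over all tested genes, at an adjusted p under 0.05. Of all 11408 tested genes, 19.6% passed, 9.62% higher and 9.95% lower, and 4087 had an unadjusted p under 0.05. Among the histone genes 5 of 17 had an unadjusted p under 0.05. The share of histone genes called, 11.8%, was not above that of all genes, and no histone gene was called higher. The genotypes did not overlap, in either direction, for 4 of the 17, against 36.6% of all tested genes. The median log2 fold change was -0.03 over the 17 histone genes and 0.0076 over all tested genes.

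**Figure D1:**
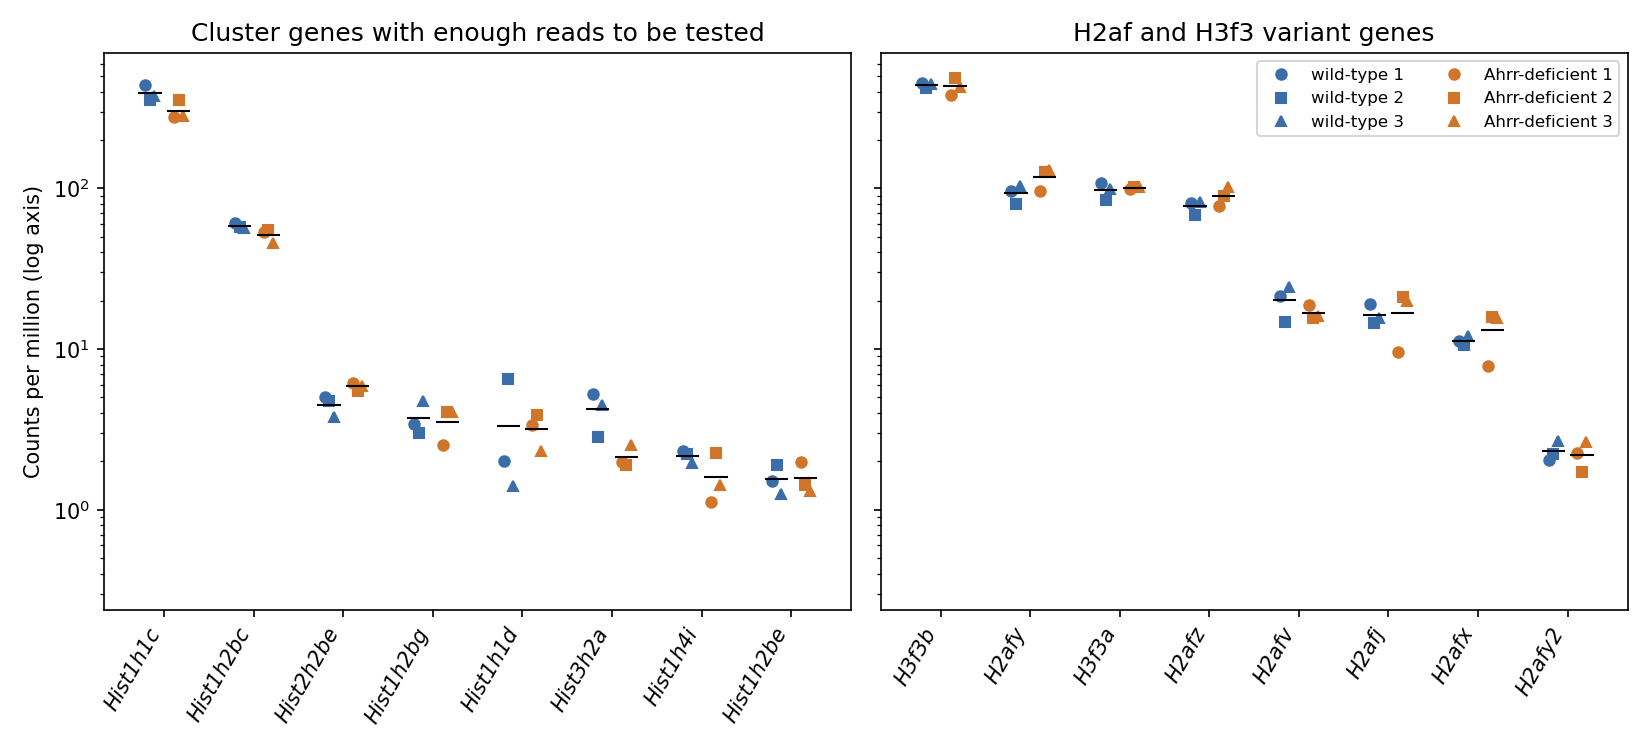
Level in each library, in CPM on a log axis, of the 8 tested cluster genes (left) and the 8 variant genes (right); blue is wild-type, orange is Ahrr-deficient, symbols mark replicates and short lines the group means. Hist1h1c, Hist3h2a and Hist1h2bc lie lower in all Ahrr-deficient libraries and Hist2h2be higher, while the libraries of every variant gene overlap. Only Hist1h1c and Hist3h2a passed the test.

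Among the linker histones, which bind DNA between nucleosomes, Hist1h1c (ENSMUSG00000036181.2, chr13:23738808-23740367, plus strand) was the most abundant cluster gene. Its level was 441, 358 and 375 CPM in wild-type 1 to 3 and 279, 356 and 281 CPM in Ahrr-deficient 1 to 3. The groups did not overlap, but wild-type 2 and Ahrr-deficient 2 were nearly level in CPM, which uses library totals. The test scaled those totals by TMM factors, 0.904 for wild-type 2 and 1.04 for Ahrr-deficient 2. The means were 391 ± 44.0 and 305 ± 43.7 CPM (SD, n = 3 each), and the fitted log2 fold change was -0.43 (SE 0.12, 95% interval -0.70 to -0.16, adjusted p = 0.0369). The adjusted p rose to 0.150 without wild-type 1, 0.0909 without wild-type 2, 0.0536 without wild-type 3 and 0.112 without Ahrr-deficient 3, while the log2 fold change stayed between -0.55 and -0.36 in 15 alternative fits. Of its 75-base windows, 6.66% occurred in another gene; the share of its reads that fell there was not tested. In bulk RNA, fewer cells with a transcript and less of it per cell cannot be told apart. The summed hepatocyte, erythroid and megakaryocyte markers given above, and most macrophage markers, differed between the genotypes in the same direction, and their part in the Hist1h1c result was not tested.

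In CPM per kilobase of annotated exon, Hist1h1c stood at 223 averaged over the 6 libraries, rank 141 among 11399 tested genes with a length. H3f3b, one of the genes for the variant H3.3, stood at 147 and ranked 244. Hist1h2bc (47.5) and H2afz (47.1) followed at about the same level per kilobase. Every other cluster gene was at or below 5.88 CPM per kilobase, the level of Hist1h2bg. The scale allows neither for transcripts without a poly(A) tail nor for transcripts that end before the annotated end. For Hist1h1d, 4884 of 7425 annotated bases lay past the loop.

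Among the 5 cluster H1 genes the second by mean CPM was Hist1h1d, which encodes H1.3. It stood at 2.01, 6.51 and 1.401 CPM in wild-type 1 to 3 and at 3.37, 3.86 and 2.33 CPM in Ahrr-deficient 1 to 3. Wild-type 2 was the highest of all 6 libraries and the other 2 wild-type libraries were the lowest, so the groups overlapped. The log2 fold change was 0.08 (SE 0.51, adjusted p = 0.931) with wild-type 2 and 0.83 (adjusted p = 0.132) without it. Hist1h1e, which encodes H1.4 and had too few reads to be tested, showed the same library still more plainly. It had 5, 39 and 4 reads in wild-type 1 to 3, or 0.228, 6.19 and 0.560 CPM, and 0, 23 and 9 reads in Ahrr-deficient 1 to 3. Hist1h1e was chosen for mention after its values were seen, and it shares exon sequence on the same strand with Hist1h2be. Of its windows, 28.4% occur in Hist1h2be or in 3 other genes.

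Among the H2A genes, Hist3h2a (ENSMUSG00000078851.4, chr11:58954685-58956830, plus strand) was the only one with enough reads to be tested. Its level was 5.29, 2.86 and 4.48 CPM in wild-type 1 to 3 and 1.97, 1.90 and 2.53 CPM in Ahrr-deficient 1 to 3. All wild-type libraries lay above all Ahrr-deficient ones, with wild-type 2 the lowest of its group. The means were 4.21 ± 1.24 and 2.13 ± 0.346 CPM (SD, n = 3 each), and the log2 fold change was -1.15 (SE 0.25, 95% interval -1.71 to -0.59, adjusted p = 0.0153). The adjusted p was 0.121 without wild-type 1 and 0.0982 without Ahrr-deficient 2. Without wild-type 2 the log2 fold change was -1.28. Hist3h2a shares exon sequence with Trim17 on the same strand and with Gm44313 on the opposite strand, and 30.6% of its windows occur in another gene, so its count is uncertain. How the authors' counting treated strand and shared reads is not given in the sources used here.

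The next H2A gene by level, Hist1h2ae, had 85 reads in all and was not tested. It stood at 1.14, 1.75 and 0.841 CPM in wild-type 1 to 3 and at 1.97, 0.696 and 0.708 CPM in Ahrr-deficient 1 to 3, so the groups overlapped. Summed over the 4 H2A genes, the level was 6.75, 5.71 and 6.02 CPM in wild-type against 4.22, 2.98 and 3.54 CPM in Ahrr-deficient libraries, most of it from Hist3h2a. No test was made on this or any other sum.

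The 250 bases before the annotated start are printed for the 2 genes that passed, as RefSeq gives them on GRCm38.p6, with matches to CCAAT or AAACACA on either strand in capitals. CCAAT is the letter core of the box bound by the factor NF-Y, and AAACACA is an element described in H1 promoters.
Hist1h1c: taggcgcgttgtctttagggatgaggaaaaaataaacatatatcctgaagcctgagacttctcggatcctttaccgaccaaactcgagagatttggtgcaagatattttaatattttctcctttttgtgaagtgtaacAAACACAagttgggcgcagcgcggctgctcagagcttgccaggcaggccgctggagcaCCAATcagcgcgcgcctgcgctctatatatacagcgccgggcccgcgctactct
Hist3h2a: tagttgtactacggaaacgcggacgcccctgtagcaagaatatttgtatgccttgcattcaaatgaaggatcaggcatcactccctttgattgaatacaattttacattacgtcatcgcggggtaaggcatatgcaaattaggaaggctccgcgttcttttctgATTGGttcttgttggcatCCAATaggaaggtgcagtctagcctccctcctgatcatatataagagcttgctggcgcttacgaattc

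The first stretch is chr13:23738557-23738806 and the second chr11:58954435-58954684, both on the plus strand. RefSeq promoter windows, each 250 bases before to 50 bases after a start, were found for 34 of the 42 histone genes. CCAAT was in all 19 windows of the H1, H2A, H2B and H3 cluster genes, in 3 of 9 windows of the H4 genes and in 37.4% of all 32851 windows. The 19 windows came from 18 genes. Some overlap, such as those of Hist1h2ae and Hist1h2bg, so a shared match can count for both genes. AAACACA was in 4 of 5 H1 windows, in 0 of 23 other cluster windows and in 7.18% of all. TATAAA, the letter core of a TATA box, was in 60.7% of the 28 cluster windows, in 1 of 7 variant windows and in 13.6% of all, and in neither stretch printed here. All 3 motifs were searched on both strands, and none contains another.

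H2B, which pairs with H2A, was represented by 8 genes, 4 of them tested and none past the threshold. Hist1h2bc, the second most abundant cluster gene, stood at 61.2, 57.9 and 56.5 CPM in wild-type 1 to 3 and at 53.4, 55.1 and 45.7 CPM in Ahrr-deficient 1 to 3. Its groups did not overlap, with all Ahrr-deficient libraries below, yet the adjusted p was 0.0986 (log2 fold change -0.27, SE 0.10). Hist2h2be stood at 5.01, 4.76 and 3.78 CPM in wild-type and at 6.19, 5.52 and 5.87 CPM in Ahrr-deficient libraries. Here the groups did not overlap in the opposite direction (log2 fold change 0.25, adjusted p = 0.369). Hist1h2bg and Hist1h2be had overlapping groups, log2 fold changes of -0.03 and -0.15 and adjusted p of 0.950 and 0.741. Reads of these genes are hard to assign: 27.1% of the windows of Hist1h2bc and 47.4% of those of Hist1h2bg occur in other genes, mostly other H2B genes, and none of those of Hist2h2be.

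**Figure D2:**
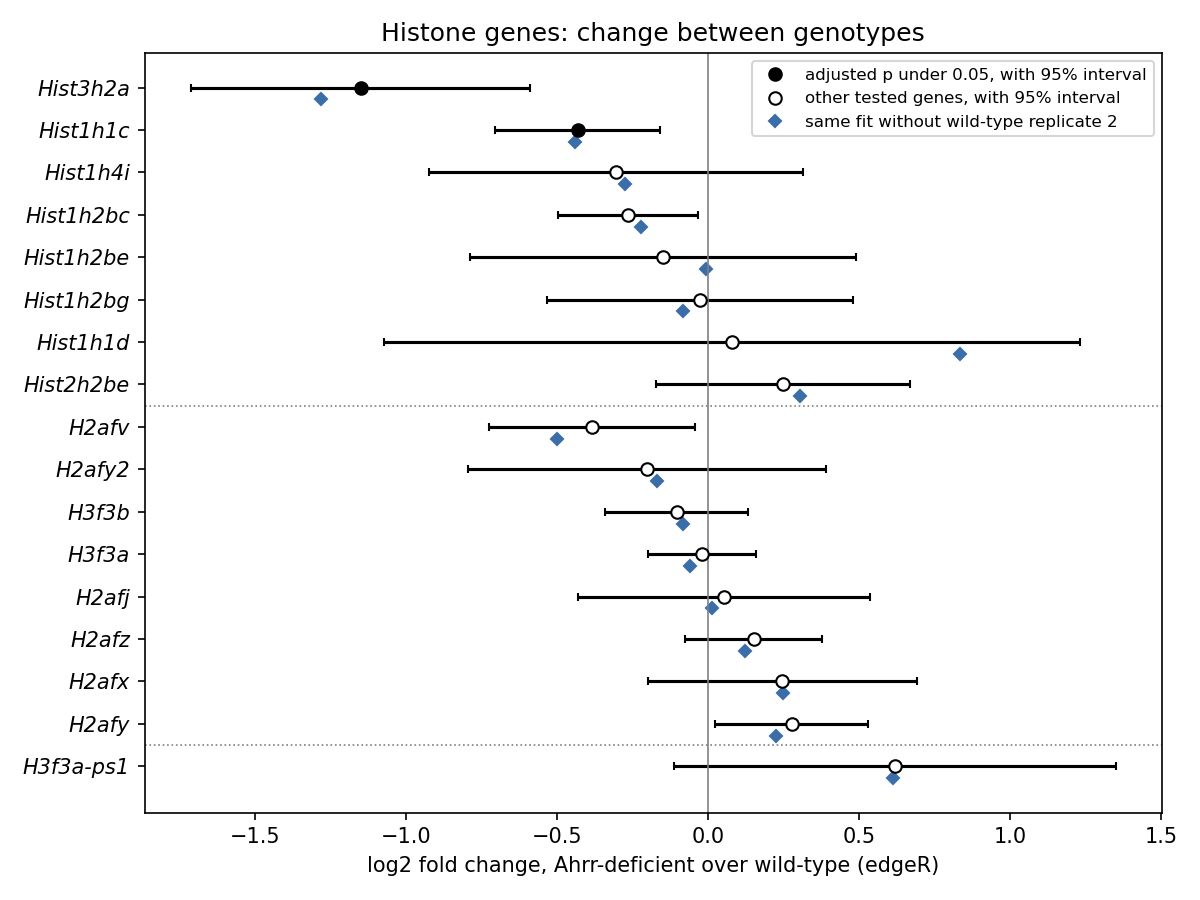
Fitted log2 fold change of the 17 tested histone genes, Ahrr-deficient over wild-type, with 95% intervals; filled circles passed the test, diamonds show the same fit without wild-type replicate 2, and dotted lines separate cluster genes, variants and the pseudogene. The whole intervals of Hist3h2a and Hist1h1c lie below 0, as do those of Hist1h2bc and H2afv, which did not pass after adjustment, and Hist1h1d moves from 0.08 to 0.83 when wild-type 2 is left out.

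H3 cluster genes had the fewest reads, and none of the 4 was tested. Hist1h3d had 80 reads in all and stood at 0.820, 0.635 and 0.981 CPM in wild-type and at 1.41, 0.912 and 0.809 CPM in Ahrr-deficient libraries. Hist2h3c2, with 49 reads, stood at 0.273, 0.317 and 0.280 CPM in wild-type and at 0.281, 0.792 and 0.506 CPM in Ahrr-deficient libraries. The groups overlapped for both. The 4 genes summed to 1.37, 1.90 and 1.82 CPM in wild-type against 2.25, 1.78 and 1.52 CPM in Ahrr-deficient libraries, and in Ahrr-deficient 1 that sum rests on 8 reads.

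H4 is the histone with the most genes in the table, 10. Hist1h4i, the only one tested, stood at 2.32, 2.22 and 1.96 CPM in wild-type 1 to 3 and at 1.12, 2.26 and 1.42 CPM in Ahrr-deficient 1 to 3. Ahrr-deficient 2 lay within the wild-type range (log2 fold change -0.31, SE 0.27, adjusted p = 0.501). Hist1h4d, with 45 reads in all, stood at 0.866, 0.952 and 0.560 CPM in wild-type and at 0.281, 0.240 and 0.506 CPM in Ahrr-deficient libraries. Its groups did not overlap, and with so few reads the gene was not tested.

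Summed over the 10 H4 genes, the level was 6.61, 8.41 and 5.32 CPM in wild-type 1 to 3 and 3.37, 3.60 and 2.93 CPM in Ahrr-deficient 1 to 3. The wild-type libraries all lay above the others, wild-type 2 highest, and the mean was lower in Ahrr-deficient cells for 10 of 10 genes, with and without wild-type 2. Of the 10, 9 were untested, with 10 to 45 reads each. For Hist1h4a, named for this, the means were nearly equal, 0.162 CPM in wild-type and 0.159 CPM in Ahrr-deficient libraries. The share of all genes with a lower mean was not computed. The sums rest on 145, 53 and 38 reads in wild-type and on 12, 150 and 29 reads in Ahrr-deficient libraries. The share of windows found in other genes ran from 0 for Hist2h4 to 83.4% for Hist1h4n, with a median of 22.1% over the 10, so reads of several of them may not be assigned to 1 gene. Hist1h4n, named here after its values were seen, had 14 reads in wild-type and 0 in Ahrr-deficient libraries. Its pooled wild-type level was 7.27-fold a floor of 3 counts over the Ahrr-deficient group, and counting error in the wild-type reads was not included.

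A fit that kept every gene with at least 1 count called 6 histone genes, all lower in Ahrr-deficient cells. It called 11.7% of 24416 features, and 5.89% as lower. The 6 histone genes were Hist1h1c, Hist3h2a, Hist1h1e and, for H4, Hist1h4c (adjusted p = 0.0199), Hist1h4h (adjusted p = 5.85e-04) and Hist1h4n (adjusted p = 3.51e-04). The last 4 had too few reads for the filtered fit and are named here because this fit called them. The fit with no filter was not repeated without wild-type 2. Reads in wild-type 1 to 3 were 11, 4 and 4 for Hist1h4c, 12, 11 and 4 for Hist1h4h, and 8, 5 and 1 for Hist1h4n. In Ahrr-deficient 1 to 3 they were 1, 3 and 1 for Hist1h4c, 1, 5 and 0 for Hist1h4h, and 0 throughout for Hist1h4n. For Hist1h1e the call rests on the 39 reads of wild-type 2, and the other 2 wild-type libraries lay at or below 0.560 CPM, within the range of the Ahrr-deficient libraries.

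Summed over all 31 cluster genes, the level was 531, 457 and 458 CPM in wild-type 1 to 3 and 358, 436 and 351 CPM in Ahrr-deficient 1 to 3. The means were 482 ± 42.3 and 382 ± 47.3 CPM (SD, n = 3 each) and the groups did not overlap. Hist1h1c made up 77.9% to 83.1% of the sum in every library, and Hist1h1c with Hist1h2bc 91.0% to 94.6%, so the sum mainly repeats these 2 genes. The other 29 summed to 28.4, 40.9 and 26.9 CPM in wild-type against 25.6, 25.3 and 24.2 CPM in Ahrr-deficient libraries, where wild-type 2 stood highest and the other 2 wild-type libraries were slightly above the Ahrr-deficient ones.

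**Figure D3:**
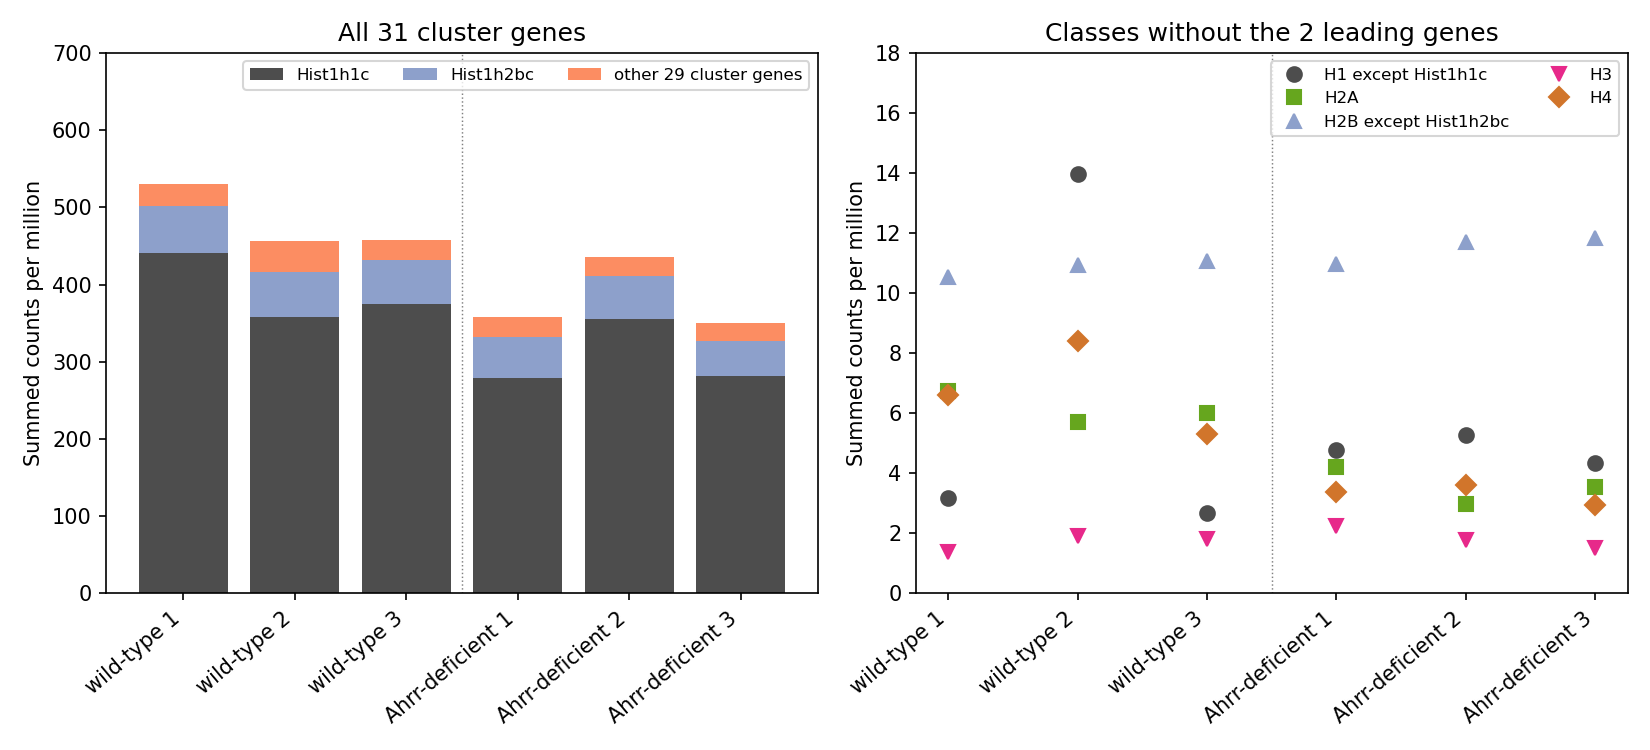
Summed CPM in each library for all 31 cluster genes, stacked with Hist1h1c, Hist1h2bc and the other 29 genes (left), and for each histone class without the 2 leading genes (right); the dotted line separates the genotypes. H4 and H2A lie lower in all 3 Ahrr-deficient libraries, and the H1 genes other than Hist1h1c stand out in wild-type 2.

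The 8 replacement variants had far more reads than most cluster genes, and none passed the test. Their median log2 fold change was 0.02, 4 lay above 0 and 4 below, and 2 had an unadjusted p under 0.05. Their libraries overlapped between genotypes in every case. H3f3b and H3f3a both encode H3.3, which is placed on chromatin outside S phase and at active genes. H3f3b stood at 452, 422 and 450 CPM in wild-type and at 384, 485 and 428 CPM in Ahrr-deficient libraries (log2 fold change -0.10, 95% interval -0.34 to 0.13, adjusted p = 0.512). H3f3a stood at 108, 85.2 and 99.6 CPM in wild-type and at 99.3, 102 and 103 CPM in Ahrr-deficient libraries. Its log2 fold change was -0.02 (95% interval -0.20 to 0.16, adjusted p = 0.882), the tightest interval among the variants.

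H2afz and H2afv encode the 2 forms of H2A.Z, a variant found at promoters. H2afz stood at 81.3, 68.6 and 82.1 CPM in wild-type and at 77.6, 89.9 and 102 CPM in Ahrr-deficient libraries (log2 fold change 0.15, adjusted p = 0.307). H2afv stood at 21.3, 14.8 and 24.5 CPM in wild-type and at 18.8, 15.5 and 16.0 CPM in Ahrr-deficient libraries. Wild-type 2 was the lowest of all 6 in CPM on library totals, a rank that does not allow for the TMM factors used in the test. The log2 fold change was -0.38 (SE 0.15, adjusted p = 0.102). The point estimates of the pair thus had opposite signs, and the difference between them was not tested.

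H2afy and H2afy2 encode the macroH2A proteins, large variants that carry an extra non-histone domain. H2afy stood at 96.4, 80.3 and 104 CPM in wild-type and at 96.7, 127 and 131 CPM in Ahrr-deficient libraries. Ahrr-deficient 1 lay among the wild-type libraries and the other 2 above them (log2 fold change 0.28, SE 0.11, adjusted p = 0.113). H2afy2 was much lower, at 2.05, 2.22 and 2.66 CPM in wild-type against 2.25, 1.73 and 2.63 CPM in Ahrr-deficient libraries (log2 fold change -0.20, adjusted p = 0.621).

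H2afx encodes H2A.X, the variant phosphorylated at DNA breaks, and has the stem-loop printed above. It stood at 11.2, 10.6 and 12.05 CPM in wild-type and at 7.87, 15.8 and 15.6 CPM in Ahrr-deficient libraries (log2 fold change 0.25, adjusted p = 0.401). H2afj, which encodes H2A.J, stood at 19.0, 14.4 and 15.7 CPM in wild-type and at 9.56, 21.1 and 19.9 CPM in Ahrr-deficient libraries (log2 fold change 0.05, adjusted p = 0.888). In both genes Ahrr-deficient 1, the shallowest library, was the lowest of the 6. Left out of the fit, it gave adjusted p of 0.0380 for H2afv, 0.0249 for H2afx and 0.00572 for H2afy, with log2 fold changes of -0.46, 0.39 and 0.37, and the same fit called 3857 genes in all.

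Of the 3 non-coding rows, H3f3a-ps1, a pseudogene of H3f3a, stood at 1.23, 0.952 and 0.701 CPM in wild-type and at 0.844, 1.94 and 1.52 CPM in Ahrr-deficient libraries (log2 fold change 0.62, adjusted p = 0.204). H3f3aos, on the strand opposite H3f3a, had 41 reads in all and was not tested. Of the windows of H3f3a-ps1, which lies on chromosome X, 30.4% occur in other genes. Of those of H3f3aos, 2.90% occur in H3f3a. Without knowledge of strand in the counting, reads in that shared part cannot be told apart from those of H3f3a.

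The 8 variants summed to 791, 698 and 791 CPM in wild-type against 696, 858 and 818 CPM in Ahrr-deficient libraries. The groups overlapped, and the difference of means, 30.9 CPM, was below the spread within the groups (SD 53.7 and 84.5 CPM, n = 3 each). The ratio of summed cluster CPM to summed variant CPM was 0.671, 0.655 and 0.579 in wild-type and 0.514, 0.508 and 0.429 in Ahrr-deficient libraries. Every wild-type ratio was above every Ahrr-deficient one, and Hist1h1c carries most of the numerator.

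Wild-type 2, the library rich in ribosomal and other untailed RNA, was set against wild-type 1 and 3 pooled. It held the highest CPM of all 6 libraries for 11 of the 31 cluster genes (35.5%) and for 0 of the 8 variants. The same was true of 6.45% of all tested genes and of 11.1% of all genes in the table. These shares are not matched for read count, and a few reads can decide the highest CPM of a low gene. Of the cluster genes, 23 had at most 85 reads in all, while the variants had 184 to 41601. Hist1h3e, for example, was highest in wild-type 2 on 3 reads. The ratio of wild-type 2 to the other 2 wild-type libraries had a median of 1.20 over the cluster genes and 0.829 over the variants. Its 95% counting interval lay wholly above 1 for 5 cluster genes and no variant, and wholly below 1 for 2 cluster genes and 6 variants. These ratios use library totals. With effective library sizes (TMM), an alternative chosen after seeing the data, 5 cluster genes and no variant lay above 1, 1 cluster gene and 3 variants lay below 1, and the medians were 1.34 and 0.923.

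The 5 genes above 1, named here for that, were Hist1h1e with a ratio of 20.0 (95% interval 9.53 to 47.0), Hist1h1a with 18.5 (1.83 to 909), Hist1h2ak with 5.77 (1.24 to 29.1), Hist1h1d with 3.50 (2.28 to 5.36) and Hist1h4h with 3.17 (1.33 to 7.28). For Hist1h1c the ratio was 0.843 (0.805 to 0.881), and for Hist1h2bc it was 0.965 (0.860 to 1.08). Hist1h1b, an H1 gene with 76 reads, had a ratio of 0.738 (0.187 to 2.14), an interval that spans 1. Intervals cover counting error only. The part of untailed RNA in these ratios was not tested.

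**Figure D4:**
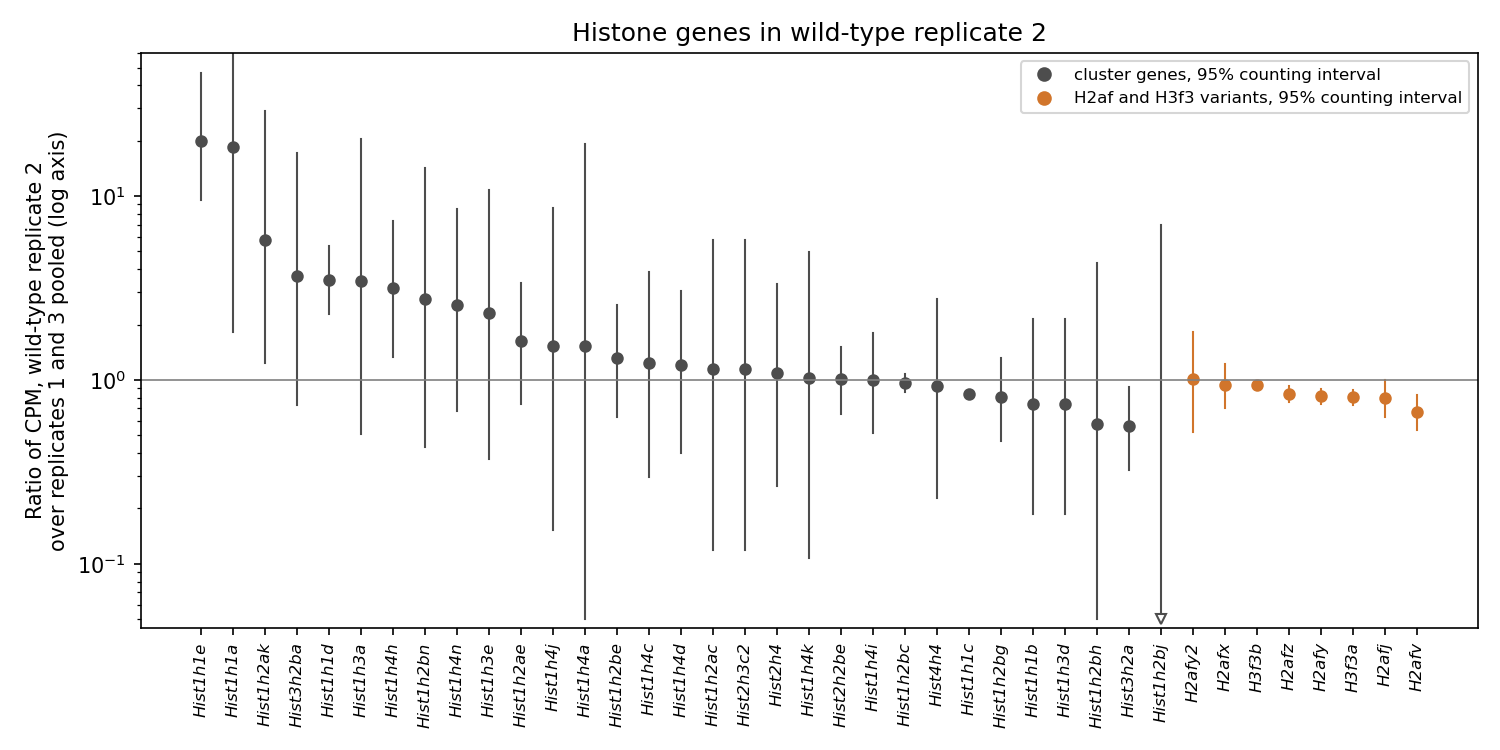
Ratio of CPM in wild-type replicate 2 to replicates 1 and 3 pooled, on a log axis, for the 31 cluster genes (grey) and the 8 variants (orange), with exact 95% counting intervals; the open triangle marks a ratio of 0 and intervals that leave the axis are cut. Hist1h1e and Hist1h1d stand well above 1, Hist1h1c just below it (0.843, and 0.938 with effective library sizes), and no variant has its interval above 1.

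Of 17 listed genes that process histone messenger RNA, 16 were tested. Of these, 2 rose and 1 fell, against 9.62% and 9.95% of all tested genes, and the median log2 fold change was 0.14. Slbp, whose product binds the stem-loop, stood at 22.5, 23.5 and 23.8 CPM in wild-type and at 24.7, 27.9 and 26.9 CPM in Ahrr-deficient libraries. The groups did not overlap in CPM on library totals, but the log2 fold change was 0.13 with an adjusted p of 0.369. Cpsf2, a subunit of the cleavage complex, rose from 38.0, 32.1 and 43.4 CPM to 56.0, 56.2 and 51.8 CPM (log2 fold change 0.46, adjusted p = 0.0143). Its adjusted p was 0.0806 without wild-type 1, 0.0578 without wild-type 2 and 0.0537 without Ahrr-deficient 2.

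Ncbp2, which encodes the smaller cap-binding protein, rose from 23.0, 16.3 and 24.2 CPM to 27.8, 36.8 and 35.1 CPM (log2 fold change 0.60, adjusted p = 0.0171). Leaving out wild-type 1, wild-type 2, Ahrr-deficient 2 or Ahrr-deficient 3 gave adjusted p of 0.0609, 0.0602, 0.0706 and 0.0638. Zcchc11, a uridylyltransferase linked to histone messenger RNA decay, fell from 30.1, 31.9 and 33.3 CPM to 25.3, 13.0 and 15.4 CPM (log2 fold change -1.03, adjusted p = 0.0132). Its adjusted p was 0.05005 without wild-type 2 and 0.0603 without Ahrr-deficient 3. The groups did not overlap for any of these 3 genes. Slbp, Cpsf2 and Ncbp2 each share exon sequence with a gene on the opposite strand.

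Histone chaperones and deposition factors, which carry histones to DNA, numbered 29, all tested. None rose and 1 fell, against 9.62% and 9.95% of all tested genes, and the median log2 fold change was 0.07. The gene that fell was Znhit1, a subunit of the SRCAP complex that places H2A.Z, from 35.4, 32.2 and 32.2 CPM to 22.2, 28.0 and 26.4 CPM (log2 fold change -0.43, adjusted p = 0.0233). Its groups did not overlap, and its adjusted p was 0.114 without wild-type 1, 0.0795 without wild-type 2 and 0.0616 without Ahrr-deficient 3. Znhit1 overlaps Plod3 on the opposite strand.

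Of 5 histone genes whose names fall outside the symbol rule, 2 were tested. Cenpa, which encodes the centromeric H3 variant CENP-A, had the smallest adjusted p of the histone genes tested here and fell in Ahrr-deficient cells. It stood at 50.7, 48.4 and 52.0 CPM in wild-type 1 to 3 and at 27.8, 18.4 and 23.9 CPM in Ahrr-deficient 1 to 3. All wild-type libraries lay well above the others, and the log2 fold change was -1.24 (SE 0.15, adjusted p = 0.00217). In 15 alternative fits, leaving out each library among them, the adjusted p was at most 0.0161 and the log2 fold change lay between -1.38 and -1.06. H1f0, the linker histone H1.0 of resting cells, stood at 102, 89.2 and 87.0 CPM in wild-type and at 63.3, 99.0 and 100.01 CPM in Ahrr-deficient libraries (log2 fold change -0.14, adjusted p = 0.547).

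Cluster histone genes are transcribed together with the genes of DNA replication in dividing cells. Of 32 listed S phase genes, all tested, 1 rose and none fell, against 9.62% and 9.95% of all tested genes. Of the 32, 24 had a log2 fold change above 0 and the median was 0.16. The gene that rose was Ccne1, which encodes cyclin E1, from 2.42, 1.27 and 1.82 CPM to 2.53, 5.52 and 4.35 CPM (log2 fold change 1.14, adjusted p = 0.0252). Ahrr-deficient 1 lay close to wild-type 1, and the adjusted p exceeded 0.05 when any library other than Ahrr-deficient 1 was left out, between 0.0628 without wild-type 1 and 0.159 without Ahrr-deficient 2. The summed level of the list was 502, 431 and 558 CPM in wild-type against 477, 589 and 630 CPM in Ahrr-deficient libraries, so the groups overlapped.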

How the data were processed

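RNA sequencing libraries of macrophages, 3 wild-type and 3 Ahrr-deficient, were compared. The deposited files hold raw counts per gene for 53465 features and, for 16111 annotated genes, DESeq2-normalized signal deposited by the authors, whose values equal the count divided by 1 factor per library. The submitters' processing notes name CASAVA 1.8.2, fastp 0.20.0, STAR 2.7.10b, SAMtools 1.16.1, R 4.3.1, DESeq2 1.40.2 and build mm10; the counting step, its use of strand and its handling of multiply mapped reads are not given in the sources used here. Whole reads were recovered from the deposited signal for 100% of values (tolerance 1e-06) and joined to the raw counts, which named the genes; each listed gene had at least 10 reads, and features left unnamed held 0.0232% to 0.0511% of a library's counts.

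CPM used library totals. Tests used edgeR 4.0.16 in R 4.3.3 on raw counts (TMM factors 0.904 to 1.04, filterByExpr, glmQLFit and glmQLFTest, two-sided, genotype only), adjusted over 11408 genes. Intervals of fold changes use the t distribution with the test's degrees of freedom. The fit was tested on simulated data. Alternatives used DESeq2 1.42.0, limma 3.58.1, other scaling factors and filters, thinning, the replicate block, and each library left out. Sequences came from GENCODE vM21 and RefSeq, both on GRCm38; 34 genes matched a RefSeq promoter. Shared windows are 75-base stretches of a gene's transcripts found in another gene.

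Genes named are all H2af and H3f3 genes, cluster genes with adjusted p under 0.05 or with tested groups that did not overlap, the 2 with the highest mean CPM in each class, and, from the lists, those past the threshold (at most 5 a list), Slbp and Ahrr; others are marked in the text. The genes and lists were chosen with earlier results of these data known.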

Additional observations from a re-analysis of the deposited data

How the results depend on the processing

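Over 25 named genes, 361 log2 fold changes were recomputed under the alternatives: 312 kept their direction and their side of the threshold, 31 kept direction but no longer passed, 3 passed only in the alternative and 15 changed sign, all in genes that had not passed. No value could be had for 14 pairs of gene and setting because the gene had too few reads. The 2 histone genes that passed did so with RLE, upper-quartile factors, DESeq2, limma-voom and without the untailed RNAs. The count was 6 with no filter on low counts (2859 of all features), 1 with a mean of at least 50 counts, 1 after thinning to the smallest total, and 0 to 5 with a library left out. Adjusted p over the alternatives was 0.00652 to 0.150 for Hist1h1c and 0.00112 to 0.121 for Hist3h2a. All genes called, 2232, became 1250 after thinning (606 higher, 644 lower) and 694 to 3857 with a library left out (327 to 1889 higher, 367 to 1968 lower). Upper-quartile factors gave 933 higher and 1301 lower, 41.8% higher against 49.1%. List genes called, 5 on the processing, chaperone and S phase lists and so without Cenpa, became 12 with no filter, 8 with limma-voom and 3 after thinning. With a library left out they became 0 to 19. The difference in summed cluster CPM, -100.2, was -4.64 without the top gene of each class. The cause of these changes was not tested.

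Replicate numbers belong to different mice. Deviations from the group means correlated at -0.17, 0.07 and 0.13 for numbers 1, 2 and 3 over 11408 genes, so the numbers were not taken to pair the samples. With the replicate block, 1390 genes were called (666 higher, 724 lower), 3 list genes and 0 histone genes, with adjusted p of 0.0532 for Hist1h1c and 0.0542 for Hist3h2a.

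Signs changed for Hist1h1d (-0.119 with DESeq2, -0.113 with the block, -0.361 to 0.834 with a library left out), Hist1h2bg (0.0277 with limma-voom, 0.191 after thinning, -0.147 to 0.104), H2afj (-0.0174 with the block, -0.127 to 0.209), H3f3a (-0.0597 to 0.0404) and H2afy2 (-0.383 to 0.0879), the last 3 ranges also with a library left out. The 23 cluster genes with at most 85 reads in all were removed by the filter on low counts in the fit of all 6 libraries. Leaving out 1 library changed which genes passed that filter, and 17 to 19 histone genes were then tested, against 17 with all 6. Among the ratios of wild-type 2 to the other wild-type libraries, effective library sizes left 3 of 6 variants and 1 of 2 cluster genes with an interval below 1.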
